A study of Mus musculus with 6 samples.

Results

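Cdo1 and 9 other enzymes of cysteine oxidation, taurine synthesis, transsulfuration and sulfide removal were followed in RNA-seq of mouse embryonic fibroblasts (MEFs), as 10 of the 26231 genes in the deposited table. They were Cdo1, Ado, Csad, Cbs, Cth, Mpst, Ethe1, Suox, Got1 and Tst, picked by symbol with earlier results of the same comparison known, so their differences between the lines are given as a description without a p-value, and counts of calls among them stand only beside the share over all genes. The MEFs came from FVB embryos of about 14 days that carried Nf2 alleles flanked by loxP sites. Per the study's methods they were immortalized with SV40 large T antigen and then transduced with a GFP vector-control lentivirus (3 libraries, MEF WT) or with a lentivirus carrying Cre and GFP, both under a CMV promoter (3 libraries labelled MEF Nf2 KO, here the KO-labelled libraries). Both lines therefore come from floxed MEFs and share large T antigen and GFP. Cre exposure and Nf2 deletion cannot be told apart in this design. All cultures spent 24 h without serum before RNA was taken, and the labels do not say whether replicates came from separate cultures, so the spread between them may be technical. The table's headers mark replicates 1 and 2 of each line by a letter and name replicate 3 of each line, the deepest, by a different scheme, whose meaning is not stated.

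Cysteine is an amino acid whose excess is removed mainly by oxidation. Cysteine dioxygenase, the product of Cdo1, adds oxygen to the thiol and gives cysteine sulfinate, which is either decarboxylated towards taurine or transaminated to give sulfite, which sulfite oxidase turns into sulfate. Transsulfuration supplies cysteine from homocysteine and serine, and a set of sulfurtransferases and a persulfide dioxygenase deal with the sulfide and persulfide that cysteine breakdown leaves. The pathway is best known in liver, where CDO1 protein is degraded when cysteine is scarce, so an RNA level does not give the amount of enzyme.

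Values are RPKM, reads scaled to exon length and to library size, a unit inferred from the values. Inferred depths were 13430000, 18920000 and 61110000 reads for MEF WT replicates 1 to 3, and 18040000, 19240000 and 72910000 reads for the KO-labelled libraries. Nf2 itself stood at 14.3, 13.7 and 13.1 RPKM in MEF WT and at 15.4, 12.9 and 13.9 RPKM in the KO-labelled libraries. Nf2 RNA was thus not lower where the label names a knockout, although a value over the whole gene does not check a deleted exon, and directions below rest on the labels. All 8 fibroblast markers were measured, with a summed level of 1850 to 2550 RPKM in MEF WT and 1440 to 1880 RPKM in the KO-labelled libraries, and 2 of the 8, Pdgfra and Fn1, passed the test as lower, beside 0.578% of all genes tested, although Pdgfra reached 1 RPKM in 3 MEF WT libraries and 1 KO-labelled library and so met the filter through the line where it is high. With the replicate number as a block 4 of the 8 passed as lower, Col3a1 and Thy1 in addition, beside 4.54%. Of 7 macrophage markers 5 lay under 1 RPKM in every library (Ptprc, Adgre1, Csf1r, Itgam and Lyz2). The summed level was 9.25 to 12.0 RPKM in MEF WT and 7.42 to 9.42 RPKM in the KO-labelled libraries. Most of it came from Cd68, at 5.08 to 8.1 RPKM over all libraries, and Cd14, at 1.49 to 3.59 RPKM. Of 6 adipocyte markers 5 lay under 1 RPKM throughout, Adipoq and Plin1 included, and the sums were 1.85 to 3.45 and 1.69 to 2.38 RPKM. The exception was Pparg, at 1.26 to 3.18 RPKM. The hepatocyte markers Afp and Apoa1 summed to at most 0.167 RPKM in any library. The part of the lower fibroblast markers in the members' differences was not tested, and in bulk RNA fewer expressing cells and less RNA per cell cannot be told apart.

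Of the 10 members 7 had an entry in the RefSeq promoter table (GRCm38.p6), while Cdo1, Cth and Tst had none. The 250 bases before the annotated start are shown for the 3 genes that later results turn on and whose window holds no annotated exon. Got1 carries the sole ATF4-type match among the members, Ado is the second thiol dioxygenase, and Rgs4 encodes a known protein substrate of ADO. The 4 motif cores searched on both strands were TGATGNAA (core of the ATF4 composite element), TGACNNNGC (antioxidant response element), GGAATG (TEAD) and GGGCGG (SP1 GC box), and capitals mark a match to the first of these.
Got1, chr19:43524606-43524855, minus strand: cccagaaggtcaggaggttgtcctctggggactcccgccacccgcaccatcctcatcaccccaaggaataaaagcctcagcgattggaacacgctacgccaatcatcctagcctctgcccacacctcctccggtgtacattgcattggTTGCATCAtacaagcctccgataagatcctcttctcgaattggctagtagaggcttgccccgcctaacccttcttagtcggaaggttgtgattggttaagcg
Ado, chr10:67548956-67549205, minus strand: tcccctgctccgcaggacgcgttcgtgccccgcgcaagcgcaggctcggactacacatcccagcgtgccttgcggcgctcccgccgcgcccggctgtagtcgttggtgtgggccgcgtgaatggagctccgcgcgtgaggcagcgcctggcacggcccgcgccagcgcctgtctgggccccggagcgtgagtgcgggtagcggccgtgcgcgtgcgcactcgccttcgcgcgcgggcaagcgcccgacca
Rgs4, chr1:169747643-169747892, minus strand: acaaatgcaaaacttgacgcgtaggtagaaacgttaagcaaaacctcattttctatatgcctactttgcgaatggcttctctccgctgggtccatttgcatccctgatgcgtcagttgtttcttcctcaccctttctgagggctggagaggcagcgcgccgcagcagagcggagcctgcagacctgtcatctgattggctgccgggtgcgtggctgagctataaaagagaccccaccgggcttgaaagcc
The capitals in Got1 are the ATF4 core read on the opposite strand, a match present in 3.5% of all 32851 windows. Ado and Rgs4 held none of the 4 cores. Over the 11 windows of the 7 members the ATF4 core occurred in Got1 alone and the antioxidant core, present in 10.2% of all windows, in 1 window of Mpst. The TEAD core, present in 12.6% of all windows, was in none of the 11, and the GC box, present in 32.7%, was in 5 of them (Cbs, 1 of the Csad windows, both Ethe1 windows and Suox). These matches are letters in a window, not shown binding sites.

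Cdo1 was higher in every KO-labelled library than in any MEF WT library. It measured 11.3, 16.8 and 17.8 RPKM in MEF WT and 38.8, 34.6 and 32.1 RPKM in the KO-labelled libraries. The means were 15.3 ± 3.51 and 35.2 ± 3.40 RPKM (SD, n = 3 each), a 2.30-fold higher level. On the log2(RPKM + 1) scale the difference was 1.17 with a standard error of 0.178. Same-numbered libraries differed 3.44-fold, 2.06-fold and 1.80-fold, so replicate 1, with the lowest MEF WT and the highest KO-labelled level, showed the widest gap. Without replicate 1 in both lines the log2 difference was 0.91, and over all 9 ways of leaving out a replicate number or a single library it ran up to 1.35. These levels rest on 249 to 3844 inferred reads per library, and none of the exon sequence is shared with an overlapping gene. Cdo1 lies on chromosome 18, minus strand, under the gene identifier ENSMUSG00000033022.8. Among the 11067 genes that reached 1 RPKM in 3 or more libraries, 51 had a larger log2 increase than Cdo1, which with Cdo1 makes 0.47% of them.

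**Figure D1:**
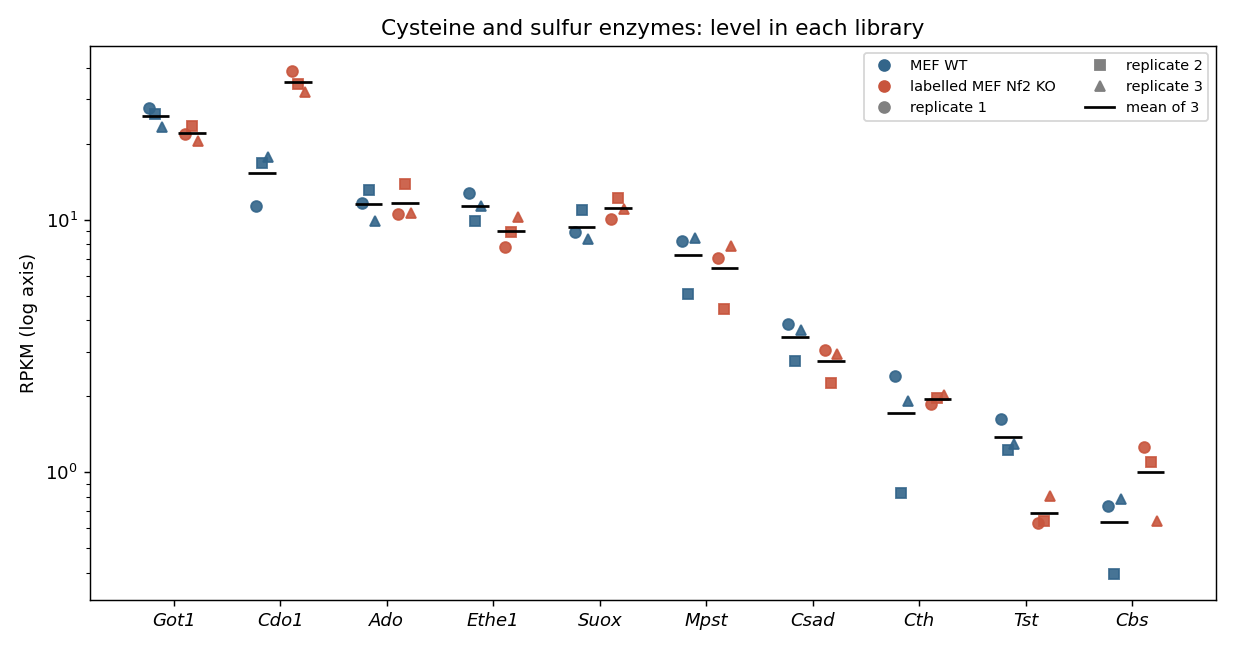
RPKM on a log axis for the 10 enzymes in each library, ordered by mean MEF WT level, with blue for MEF WT, red for the KO-labelled libraries, marker shape for the replicate number and a black line for the mean of 3. Cdo1 sits at 11.3 to 17.8 RPKM in MEF WT and at 32.1 to 38.8 RPKM in the KO-labelled libraries, and Tst is the other gene whose colours do not overlap.

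Of the 10 members, 1 (Cdo1) was without overlap and higher and 1 (Tst) without overlap and lower, beside 7.6% higher, 7.52% lower and 15.1% in all of the genes tested. Across those genes 1.06% passed the test at an adjusted p under 0.05 (limma, 117 genes), 0.479% as higher and 0.578% as lower in the KO-labelled libraries. Cbs was too low to be tested, and of the other 9 members 1, Cdo1, passed, as higher. That count was 0 in 7 of 9 leave-outs of a replicate number or single library, all but those without replicate 2 and without MEF WT replicate 2, and 0 with no filter on low values. With the replicate number as a block 7.53% of genes passed, 2.99% as higher and 4.54% as lower, and 2 members did, Cdo1 as higher and Tst as lower. Since the members were proposed from this contrast, nothing is read from these counts. Over the 9 tested members the median log2 difference was -0.151, beside -0.008 over all genes tested, and the median size of the difference was 0.221 beside 0.105.

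Ado, 2-aminoethanethiol dioxygenase, is the related enzyme that oxidizes cysteamine to hypotaurine and the amino-terminal cysteine of some proteins. Its levels were 11.7, 13.1 and 9.91 RPKM in MEF WT and 10.5, 13.8 and 10.6 RPKM in the KO-labelled libraries. The means were 11.6 ± 1.61 and 11.6 ± 1.90 RPKM, and the log2 difference of 0.0015 had a standard error of 0.146. The lines overlapped, and replicate 2 was the highest library in each. Ado therefore stood at 1.04, 0.782 and 0.555 times the Cdo1 level in MEF WT and at 0.271, 0.399 and 0.329 times that level in the KO-labelled libraries, a ratio without overlap between the lines.

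Cysteine sulfinate, the product of CDO1, has the routes begun by CSAD and by the aspartate aminotransferases. Csad, the decarboxylase that leads to hypotaurine and taurine, measured 3.86, 2.75 and 3.67 RPKM in MEF WT and 3.06, 2.26 and 2.94 RPKM in the KO-labelled libraries. Its log2 difference was -0.24 with a standard error of 0.145. The KO-labelled library was the lower of each pair, by 0.26, 0.20 and 0.25 on the log2 scale, yet the lines overlapped since replicate 2 was low in both. Csad shares 7.3% of its exon bases with Zfp740 on the opposite strand, and the sources used here do not state a stranded count. Got1, the cytosolic aspartate aminotransferase, measured 27.8, 26.2 and 23.3 RPKM in MEF WT and 21.9, 23.6 and 20.6 RPKM in the KO-labelled libraries. Its means were 25.8 ± 2.25 and 22.0 ± 1.51 RPKM, with a log2 difference of -0.22 and a standard error of 0.103. Got1 was also lower in all 3 pairs with overlapping lines, an overlap made by the 23.3 RPKM of MEF WT replicate 3 and the 23.6 RPKM of KO-labelled replicate 2. Across all genes tested, 46.9% kept the same sign in all 3 pairs, 22.3% higher and 24.6% lower, beside 2 members that were higher and 5 that were lower in all 3.

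The level of Cdo1 relative to these next steps follows from the higher Cdo1 and the slightly lower Csad and Got1, and is given as a description. The ratio of Cdo1 to Csad was 2.93, 6.09 and 4.87 in MEF WT and 12.7, 15.3 and 10.9 in the KO-labelled libraries. The ratio of Cdo1 to Got1 was 0.407, 0.641 and 0.765 in MEF WT and 1.78, 1.47 and 1.56 in the KO-labelled libraries. Cdo1 was thus below Got1 in each MEF WT library and above it in each KO-labelled library. As a share of the RPKM summed over the 10 members, Cdo1 made up 12.6%, 19.3% and 20.5% in MEF WT and 37.7%, 33.4% and 32.5% in the KO-labelled libraries. The summed level of the other 9 was 78.1, 70.4 and 69.1 RPKM in MEF WT and 64.1, 69.0 and 66.7 RPKM in the KO-labelled libraries.

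The transsulfuration genes Cbs and Cth were, with Tst, the lowest of the set in both lines. Cbs, cystathionine beta-synthase, which joins homocysteine and serine, measured 0.733, 0.394 and 0.786 RPKM in MEF WT and 1.26, 1.10 and 0.643 RPKM in the KO-labelled libraries. It fell short of the filter on low values and was not tested, its lines overlapped, and its 56 to 360 inferred reads per library make it one of the less precise members. Cth, cystathionine gamma-lyase, which releases cysteine, measured 2.40, 0.831 and 1.92 RPKM in MEF WT and 1.86, 1.97 and 2.03 RPKM in the KO-labelled libraries. The SD of the KO-labelled values was 0.0848 RPKM and that of the MEF WT values, with a low replicate 2, was 0.802 RPKM. The log2 difference of Cth was 0.17 (standard error 0.228) and turned to -0.09 without that 1 library.

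The sulfurtransferases Mpst and Tst lie head to head on chromosome 15 and encode enzymes that pass sulfur from mercaptopyruvate and from thiosulfate. Tst occupies chr15:78399556-78405907 on the minus strand and Mpst chr15:78406416-78414013 on the plus strand (GRCm38), with 508 bases between them. Tst, also known as rhodanese, measured 1.62, 1.23 and 1.29 RPKM in MEF WT and 0.629, 0.639 and 0.805 RPKM in the KO-labelled libraries. The means of 1.38 ± 0.209 and 0.691 ± 0.0984 RPKM put Tst 2.0-fold lower in the KO-labelled libraries, without overlap, with a log2(RPKM + 1) difference of -0.49 (standard error 0.118). That scale understates the change of so low a gene. Tst passed the filter on low values through its MEF WT libraries alone, so a difference was built into its being tested, and 36 to 249 inferred reads lie behind each value. Mpst, the neighbour, measured 8.25, 5.09 and 8.49 RPKM in MEF WT and 7.09, 4.43 and 7.89 RPKM in the KO-labelled libraries. The log2 difference of Mpst was -0.15 (standard error 0.246), lower in each pair, and 0.06 when KO-labelled replicate 2, its lowest library, was left out. That leave-out breaks a pair, since Mpst was low in replicate 2 of both lines. Without replicate 2 in both lines the difference was -0.14. The ratio of Tst to Mpst was 0.196, 0.242 and 0.152 in MEF WT and 0.0887, 0.144 and 0.102 in the KO-labelled libraries, and the nearest of these, 0.152 and 0.144, were close.

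Ethe1, the mitochondrial persulfide dioxygenase, measured 12.8, 9.91 and 11.3 RPKM in MEF WT and 7.79, 8.98 and 10.3 RPKM in the KO-labelled libraries. It was lower in every pair, by 0.65, 0.13 and 0.12 on the log2 scale, but the lines overlapped and the difference of -0.30 (standard error 0.134) came down to -0.13 without replicate 1. Ethe1 shares 6.7% of its exon bases with Zfp575 on the opposite strand. Suox, sulfite oxidase, the final step to sulfate, measured 8.92, 10.9 and 8.40 RPKM in MEF WT and 10.1, 12.2 and 11.0 RPKM in the KO-labelled libraries. It was the only member besides Cdo1 that was higher in all 3 pairs, with a log2 difference of 0.22 (standard error 0.123) and overlapping lines.

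**Figure D2:**
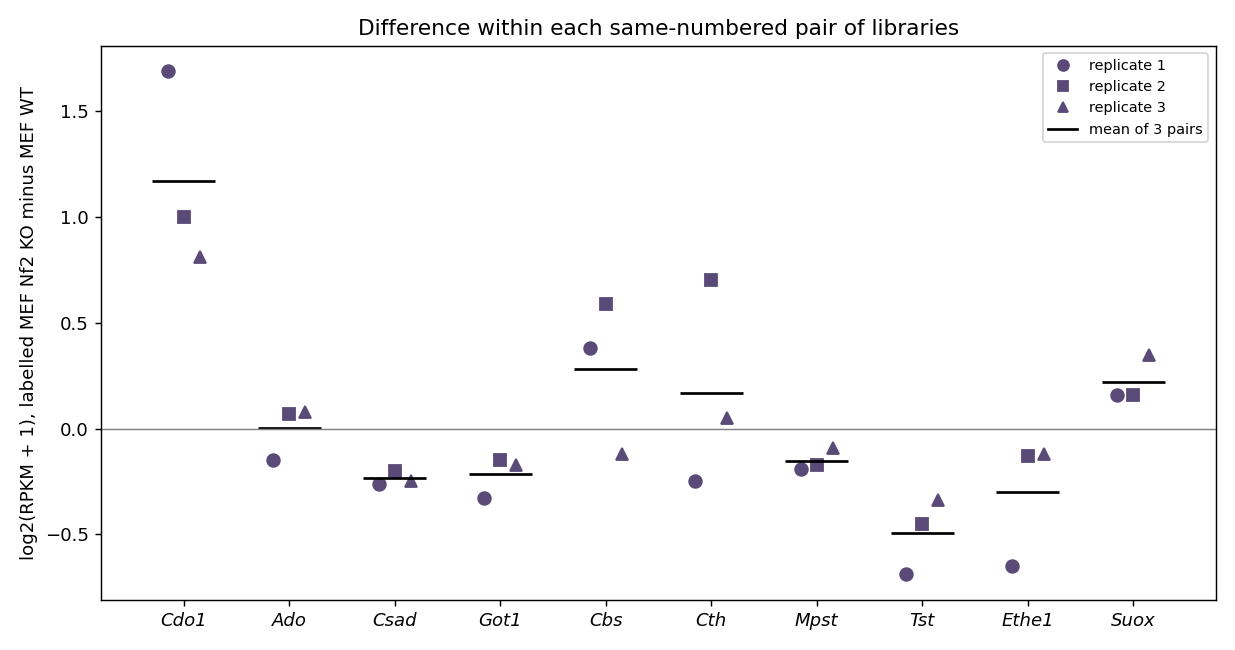
Difference in log2(RPKM + 1), KO-labelled minus MEF WT, within each same-numbered pair of libraries (points, shaped by replicate number) and the mean of 3 pairs (black line), with genes in pathway order. All 3 Cdo1 points lie at 0.81 or above, Csad, Got1, Mpst, Tst and Ethe1 lie below 0 in every pair, and Ado, Cbs and Cth have points on both sides of 0.

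The order of levels in MEF WT was Got1, Cdo1, Ado, Ethe1, Suox, Mpst, Csad, Cth, Tst and Cbs. In that order Got1 stood clear of Cdo1, Mpst of Csad, Csad of Cth and Tst of Cbs, whereas each gene from Cdo1 to Mpst overlapped its neighbour, as Cth did Tst. In the KO-labelled libraries the order was Cdo1, Got1, Ado, Suox, Ethe1, Mpst, Csad, Cth, Cbs and Tst. There Cdo1 stood clear of Got1 and Got1 of Ado, the genes from Ado to Mpst overlapped their neighbours, and Cbs and Tst overlapped at the bottom.

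Replicate 2 stood out for several members in both lines. In replicate 2 Mpst was 0.62 below the mean of the other MEF WT libraries and 0.64 below that of the other KO-labelled libraries on the log2 scale. Csad was likewise lowest there, by 0.34 and 0.29. Ado was highest there by 0.26 and 0.36, and Suox by 0.30 and 0.20. For these 4 genes the replicate number moved the level by about as much as the line or more, and Cdo1, by contrast, held the middle place in replicate 2 of both lines.

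The 5 genes of at least 5 RPKM whose profile over the 6 libraries came nearest to that of Cdo1 were Cryab, Col12a1, Plxdc2, Map2 and Tspan12. Likeness was the mean absolute difference of log2 values after each gene's own mean was taken off, compared over 7023 genes. The nearest was Cryab, a small heat shock protein gene, at 0.095, with 44.2, 52.9 and 60.0 RPKM in MEF WT and 115, 102 and 104 RPKM in the KO-labelled libraries. Col12a1, a collagen chain gene, followed at 0.109 with means of 22.5 and 43.6 RPKM. Plxdc2 at 0.131, Map2, a microtubule-associated protein gene, at 0.138 and the tetraspanin gene Tspan12 at 0.154 completed the set. Each was, like Cdo1, lowest in a MEF WT library and without overlap between lines, which the choice of a near profile brings with it. No other member was among them. Csad, Cbs, Cth and Tst averaged under 5 RPKM and were not compared. The other members overlapped between the lines, so nothing is read from their absence.

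**Figure D3:**
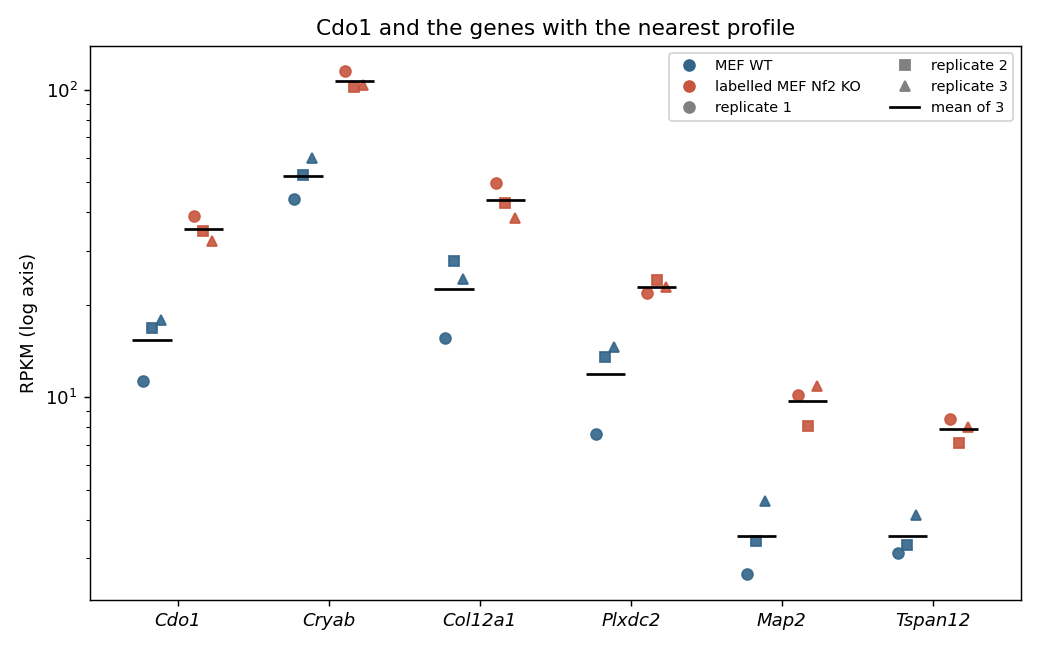
RPKM on a log axis for Cdo1 and the 5 genes nearest to its profile, with blue for MEF WT, red for the KO-labelled libraries, marker shape for the replicate number and a black line for the mean of 3. Cryab runs from 44.2 to 60.0 RPKM in MEF WT and from 102 to 115 RPKM in the KO-labelled libraries, and in all 6 genes the KO-labelled points lie above the MEF WT points.

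Genes around the pathway were taken from 7 lists written from general knowledge, holding 76 genes of the table that are no members. Of these, 59 could be tested, and 1 passed, Rgs4, as higher in the KO-labelled libraries, beside the 1.06% called among all genes. Rgs4 met the filter on low values only with its KO-labelled libraries, since 2 MEF WT libraries reached 1 RPKM. With the replicate block 3 passed, Rgs4 and Mocos as higher and Sqor as lower, beside 7.53%. The median log2 difference over the 59 was -0.034, beside -0.008 over all genes tested.

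RGS4, RGS5 and RGS16 are regulators of G protein signalling whose amino-terminal cysteine is exposed, and ADO is known to oxidize it and so to mark the protein for degradation. Rgs4 measured 1.15, 0.732 and 1.68 RPKM in MEF WT and 11.3, 4.57 and 9.32 RPKM in the KO-labelled libraries. The means were 1.19 ± 0.476 and 8.41 ± 3.48 RPKM, 7.08-fold higher, with a log2(RPKM + 1) difference of 2.05, a standard error of 0.316 and an adjusted p of 0.0439 (limma). The adjusted p was 0.00543 with the replicate block. Rgs4 reached 1 RPKM in 2 MEF WT and 3 KO-labelled libraries, so it met the filter only with the line where it is high. The fold rests on MEF WT levels near that filter, and 43 to 2105 inferred reads lie behind each value. Rgs4 rose in 3 of 3 pairs while Ado differed by 0.0015, and RNA of a substrate gene does not measure its oxidation. The Rgs4 call held under 7 of 15 alternatives, whose adjusted p ran from 0.000985 to 0.58, while the log2 difference ran from 1.81 to 2.39 over the leave-outs and was 2.05 with no filter. It was lost without any single library other than KO-labelled replicate 2, namely at 0.191, 0.0653 and 0.127 without MEF WT replicates 1, 2 and 3 and at 0.153 and 0.195 without KO-labelled replicates 1 and 3.

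Rgs5 was listed below 1 RPKM in every library, at 0.049, 0.0812 and 0.111 RPKM in MEF WT and 0.499, 0.274 and 0.223 RPKM in the KO-labelled libraries, and was not tested. The KO-labelled values were all above the MEF WT values, on 3 to 74 inferred reads. Rgs16 was highest in replicate 2 of both lines, at 3.62, 30.3 and 3.44 RPKM in MEF WT and 2.01, 5.50 and 0.994 RPKM in the KO-labelled libraries. Its log2 difference of -1.35 (standard error 0.822) gave an adjusted p of 0.745, and 10.1% of its exon bases are shared with Gm28513 on the opposite strand.

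**Figure D4:**
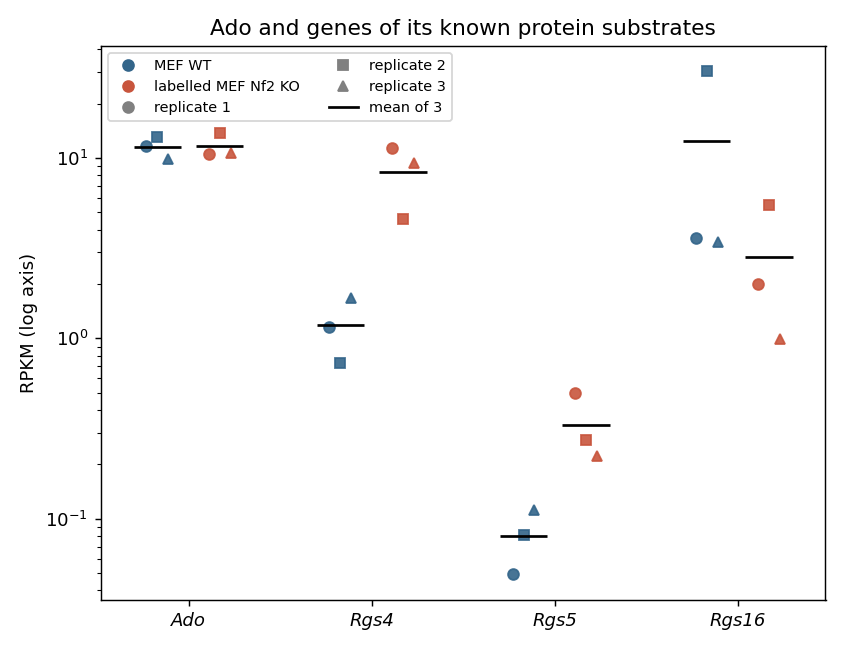
RPKM on a log axis for Ado, Rgs4, Rgs5 and Rgs16, with blue for MEF WT, red for the KO-labelled libraries, marker shape for the replicate number and a black line for the mean of 3. Ado lies at 9.91 to 13.8 RPKM in all 6 libraries, Rgs4 moves from 0.732 to 1.68 RPKM up to 4.57 to 11.3 RPKM, and Rgs16 is highest in replicate 2 of both lines.

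Supply of the substrate was followed through the methionine cycle, serine synthesis and transport. None of the 8 tested methionine cycle genes passed, and their median log2 difference was 0.022. Ahcy, which splits S-adenosylhomocysteine into homocysteine, averaged 57.1 ± 6.61 RPKM in MEF WT and 57.3 ± 9.35 RPKM in the KO-labelled libraries. The related Ahcyl1 averaged 56.4 ± 0.978 and 70.7 ± 8.87 RPKM, with an adjusted p of 0.398. Mat1a, the liver form of methionine adenosyltransferase, and Gnmt lay under 1 RPKM throughout, and Bhmt and Bhmt2 were not analysed here.

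None of the 10 serine supply and ATF4 response genes passed either, with a median of -0.152 and 8 of 10 lower, beside 5763 lower of the 11067 genes tested. Phgdh, the entry enzyme of serine synthesis, averaged 169 ± 5.05 and 153 ± 13.7 RPKM, and Atf4, a transcription factor of the amino acid response, 102 ± 18.7 and 98.7 ± 7.32 RPKM, with adjusted p values of 0.818 and 0.993. Phgdh and Atf4 stood far above Cbs and Cth on the per-length scale of RPKM. Got1, with the ATF4 core shown above, had a log2 difference of -0.22.

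Of 5 tested cystine and taurine carriers none passed. Slc6a6, the taurine transporter, measured 25.9, 27.0 and 24.9 RPKM in MEF WT and 46.4, 31.6 and 35.8 RPKM in the KO-labelled libraries. The lines did not overlap, but the adjusted p for the log2 difference of 0.51 (standard error 0.147) was 0.247, and 0.0663 with the block, while Slc6a6 passed when replicate 2 was left out of both lines. Slc3a2, the heavy chain of the cystine carrier, averaged 37.6 ± 5.55 and 43.3 ± 5.43 RPKM with an adjusted p of 0.821.

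On the sulfur disposal side 14 genes were tested and none passed, with a median of -0.037. Papss1, which makes the activated sulfate used in sulfation, averaged 30.7 ± 4.32 and 29.4 ± 4.25 RPKM, and Slc25a10, the mitochondrial dicarboxylate carrier, 13.8 ± 0.434 and 12.9 ± 1.31 RPKM, with adjusted p values of 0.983 and 0.933. Mocos and Sqor are named because the block changed their calls, a choice made after their values were seen. Mocos, the molybdenum cofactor sulfurase, measured 2.88, 2.17 and 2.65 RPKM in MEF WT and 6.45, 3.17 and 4.99 RPKM in the KO-labelled libraries, with an adjusted p of 0.30 and, with the block, 0.0286. Sqor, the sulfide quinone oxidoreductase that starts mitochondrial sulfide oxidation, measured 4.15, 3.00 and 4.17 RPKM in MEF WT and 2.94, 2.02 and 3.23 RPKM in the KO-labelled libraries. Its lines overlapped while each pair differed by 0.29 to 0.40 on the log2 scale, and its adjusted p was 0.596 and, with the block, 0.0382. Sqor passes its sulfur to the step of Ethe1, which was also lower in each pair, and Suox, the later step, was higher in each.

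Genes that use or release cysteine gave no call among 17 tested, with a median of -0.001. Gss, glutathione synthetase, averaged 17.8 ± 0.683 and 13.6 ± 2.18 RPKM without overlap, with an adjusted p of 0.35 and, with the block, 0.0598. Iscu, the scaffold for iron-sulfur clusters, averaged 15.7 ± 1.36 and 14.4 ± 1.20 RPKM. None of the 3 tested genes of cysteamine and taurine metabolism passed, and their log2 differences, from -0.12 to -0.05, were no larger in size than their standard errors. Got2, the mitochondrial aspartate aminotransferase and partner of Got1, averaged 51.5 ± 2.62 and 48.3 ± 3.44 RPKM, and Pter 5.98 ± 0.663 and 5.72 ± 0.198 RPKM. Vnn1 and Vnn3, pantetheinases that release the ADO substrate cysteamine, and Fmo1, which oxidizes hypotaurine to taurine, lay under 1 RPKM in every library.

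**Figure D5:**
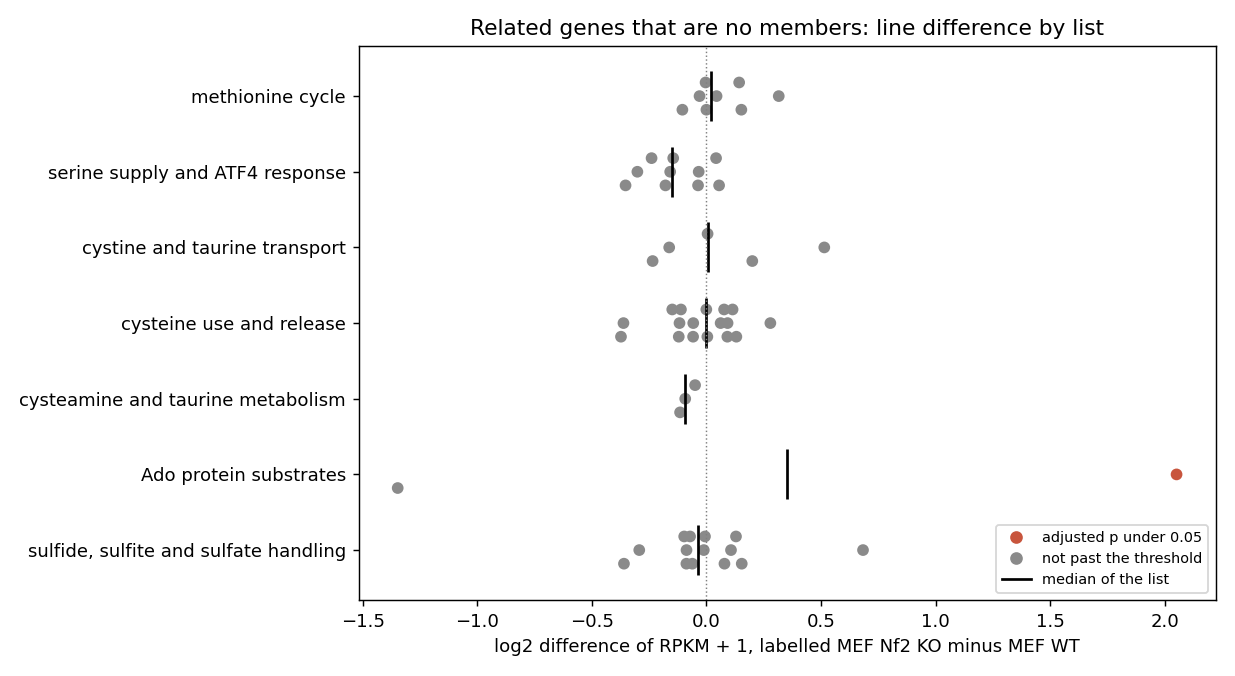
Difference in log2(RPKM + 1), KO-labelled minus MEF WT, for the 59 tested genes of the 7 related lists (points, red where the adjusted p is under 0.05, grey otherwise), with the median of each list as a black line. Rgs4 at 2.05 is the sole red point, Rgs16 lies at -1.35 and Mocos at 0.68, and the other points lie between -0.37 and 0.51.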

How the data were processed

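The authors deposited a single table of 26231 genes and 6 libraries whose values are RPKM by inference: once multiplied by GENCODE vM21 exon length, low values (20 reads or fewer) fell within 0.05 reads of a whole number in 83.8% to 85.6% of cases, against 10% by chance. The labels name mm10, and the aligner and counting tool are not given in the sources used here. Values were set to log2(RPKM + 1). The 11067 genes that reached 1 RPKM in 3 or more libraries were tested with limma 3.58.1 in R 4.3.3 (eBayes, trend and robust settings, unpaired as in the study's methods, two-sided, Benjamini-Hochberg adjustment over all of them, threshold 0.05), after a test on simulated data. After removal of each line's mean, libraries that share a number in the labels correlated at 0.552, 0.819 and 0.516 over the genes for replicates 1 to 3, so the numbers were taken to pair the samples. A fit blocked on the replicate number is given where it changes a call of a member, a related gene or a marker. Alternatives were this block, other limma settings, a pseudocount of 0.1, the filter dropped or raised to 5 RPKM, quantile normalization, median centring and leaving out each replicate number or library.

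The members and all lists were chosen with earlier results of these data known. Named were the members, Nf2, of each related list every gene past the threshold and the 2 with the highest MEF WT mean, and the 5 genes nearest to Cdo1. Outside this rule, Mocos, Sqor, Rgs5, the related genes said to lie under 1 RPKM and the markers named by their test or level were chosen after their values were seen. No 2 libraries were duplicates. Sequences are from RefSeq. Bhmt, Bhmt2, Slc7a9 and the hepatocyte markers Alb, Ttr, Hnf4a and Serpina1a were not analysed here.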

Additional observations from a re-analysis of the deposited data

How the results depend on the processing

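The count of genes past the threshold, 117, became 833 with the replicate block, 9 with no filter on low values (26231 genes tested) and 63 with a filter of 5 RPKM, and ran from 0 to 484 when replicate numbers or single libraries were left out, 0 without replicate 1 and without replicate 3 (578 and 556 genes at an unadjusted p under 0.05 in limma). Members past the threshold, 1, became 2 with the block and 0 with no filter, and ran from 0 to 1 over the leave-outs: of these the Cdo1 call held without replicate 2 and without MEF WT replicate 2. Related genes, 1, became 3 with the block, 0 with no filter and 0 at 5 RPKM, where Rgs4 was not among the genes tested, and ran from 0 to 3, the latter without replicate 2 (Rgs4, Mocos and Slc6a6). The other filters change the number of genes tested and the leave-outs the number of samples, and for the replicate block the cause was not tested. The Cdo1 log2 difference ran from 0.91 to 1.35 over the leave-outs, 0.91 without replicate 1 being the value that moved by more than the replicate spread, and from 1.16 to 1.22 otherwise. Of 126 values of the other members under the alternatives, 1 moved by more than that spread, Tst at -0.90 with a pseudocount of 0.1. Scaling moved the median of all genes to no more than 0.01. Few reads limit Cbs, Cth, Tst, Rgs4, Rgs5 and the genes under 1 RPKM, and replicates 1 and 2 are shallower than replicate 3.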
